A study of Mus musculus with 4 samples.

Results

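The genes described here are 48 members of the DNA replication machinery in mouse embryonic stem cells (mESCs), found by symbol among the 53379 genes of the files. The list was set by function rather than by a threshold on the values, though with earlier results of these data known. They were the 6 subunits of the origin recognition complex (*Orc1* to *Orc6*), the licensing factors *Cdc6* and *Cdt1* with the inhibitor *Gmnn*, the 6 subunits of the MCM2-7 helicase, *Mcm8*, *Mcm9* and *Mcm10*, *Cdc45* with the 4 GINS subunits, the polymerases alpha, delta and epsilon with primase, the clamp *Pcna* and its loader *Rfc1* to *Rfc5*, replication protein A, *Lig1* and *Fen1*, *Rrm1*, *Rrm2* and *Tk1*, and the chromatin assembly subunit *Chaf1a*. RNA was sequenced from a *Terc* knock-out clone, DKO741, at population doubling 100 (PD100, before alternative lengthening of telomeres, ALT, had begun) and at population doubling 800 (PD800, after ALT had begun), with 2 libraries of each that the study's methods call biological duplicates. Both groups descend from E14 mESCs in which the TR-10 construct disrupted both *Terc* alleles, the gene of the telomerase RNA. The neo cassette of the first targeted allele had been removed with Cre recombinase from an adenovirus. The cells were maintained on mouse embryonic fibroblast feeders, and feeder-free cells were used for RNA. The sample titles give population doubling levels, and the treatment note in the labels calls the same time points passages. A single clone was followed, so that culture time and the state of the telomeres cannot be told apart.

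Replication starts from origins that the origin recognition complex binds. CDC6 and CDT1 load the MCM2-7 helicase there in G1 phase, and geminin (*Gmnn*) blocks CDT1 so that an origin is not licensed again in the same cycle. CDC45 and GINS join MCM2-7 to form the active helicase, polymerase alpha and primase lay down primers, RFC loads the sliding clamp PCNA, and polymerases epsilon and delta extend the leading and the lagging strand. mESCs cycle fast, with a short G1 phase, and express these genes strongly. Many of them are known targets of E2F, the transcription factor family held in check by retinoblastoma proteins.

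Since E2F is the regulator best known for these genes, the members that passed the test below are shown with the E2F-type motif of their promoter where a window held one. The motif was searched as TTTCCCGC, TTTCGCGC, TTTGCCGC or TTTGGCGC on either strand, over 300 bases from 250 before to 50 after the RefSeq start of each gene (GRCm38.p6). The forms are distinct, but a match on one strand can overlap a match on the other, as in *Mcm5*. A further match past the start, beginning at base 1 in *Rfc3* and at base 17 in *Mcm7*, is not shown. Each stretch is written 5′ to 3′ on the gene's own strand, with the motif in capitals.
Rfc3: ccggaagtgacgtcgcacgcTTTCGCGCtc
Pole2: gtcggcggtgGCGCCAAAtcgcgaacatg
Mcm7: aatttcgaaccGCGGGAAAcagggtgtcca
Orc3: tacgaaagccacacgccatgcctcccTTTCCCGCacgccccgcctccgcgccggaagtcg
Pola1: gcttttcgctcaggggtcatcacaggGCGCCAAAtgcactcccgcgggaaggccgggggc
Mcm8: gcagaagcgcgtcatagacGCGCCAAAaaa
Mcm5: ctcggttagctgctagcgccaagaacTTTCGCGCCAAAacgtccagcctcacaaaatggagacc
Cdt1: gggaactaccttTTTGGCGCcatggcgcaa
The stretches lie at chr5:151651209-151651238 (minus strand) for *Rfc3*, chr12:69228162-69228190 (minus) for *Pole2*, chr5:138172030-138172059 (minus) for *Mcm7*, chr4:34614950-34615009 (minus) for *Orc3*, chrX:93632260-93632319 (minus) for *Pola1*, chr2:132816161-132816190 (plus) for *Mcm8*, chr8:75109330-75109393 (plus) for *Mcm5* and chr8:122568035-122568064 (plus) for *Cdt1*. Of these, the stretches of *Orc3*, *Pola1* and *Mcm5* lie outside the exons of their genes in GENCODE M21, and the others lie within an exon. A window was found for 40 of the 48 members, and 16 of the 40 (40%) held the motif, against 530 of the 12059 tested genes with a window (4.39%) and 704 of all 27025 genes with one (2.60%). Among members with a window, it was found in 6 of the 7 that rose, in 2 of the 5 that fell and in 8 of the 28 that passed neither way. The motif was therefore found beside members of both directions. No window was found for *Rfc2*, *Gins1*, *Prim2*, *Gmnn*, *Pole*, *Gins4*, *Mcm4* and *Gins2*. A match is a run of letters and not a measured binding site.

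The 4 libraries held 32454121 to 38492149 expected counts, the numbers of read pairs that RSEM assigned to genes. A floor of 3 counts lay between 0.0743 and 0.0934 CPM (counts over the library size, which was scaled by TMM factors) and covers counting error only. *Terc* had 1 count in PD100 replicate 1 and 0 counts in the other 3 libraries. The PD100 replicates stood further apart than the PD800 replicates: the chi-square per degree of freedom between replicates was 65.2 and 10.1. The share of counts from mitochondrial genes and small non-coding RNA was 22.0% to 23.4% at PD100 and 27.7% to 28.3% at PD800. TPM, which RSEM scales for transcript length and to a fixed total, placed the groups differently from CPM: on the log2(TPM + 1) scale the median of all tested genes moved by -0.12 between the groups, against 0.01 in the fit of the counts. All 48 members passed the expression filter, with expected counts from 94 for *Pold4* to 17178 for *Mcm5*.

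The first comparison asked whether the replication genes as a group changed between PD100 and PD800. Single members rose or fell, and the median of the 48 was close to 0. A gene was called where its fold change exceeded 2 with an adjusted p under 0.01 (quasi-likelihood test of edgeR, adjusted after Benjamini and Hochberg over 19148 genes). *Rfc3*, a subunit of the clamp loader, was the single member called higher, and 0 members were called lower by edgeR, as by DESeq2. No member was estimated to fall by 2-fold, so that this count is 0 at any p, while 14 members were higher and 11 lower at an unadjusted p under 0.05 and any fold. The share of all genes by that looser rule was not taken, here or below. Counts by it are thus not read as a result about the members. Over all tested genes, 6.28% were called higher and 8.81% lower by the same rule, 15.1% in all, against 2.08% of the members. With an adjusted p under 0.01 and any fold change, 8 members rose and 5 fell, 27.1% of the 48, and the background by that rule was 13.1% higher, 15.4% lower and 28.5% in all. The share of members past the adjusted p was thus near that of all genes. The median log2 fold change of the members was 0.03, beside 0.01 over all tested genes, and the median size of the change was 0.25 beside 0.45, both on the log2 scale of counts. The tested genes were not matched to the members by level of expression.

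For most members, the fit placed narrow bounds on the change. The 95% interval of the log2 fold change lay inside -1 to 1, a change of less than 2-fold, for 45 of the 48 members, and inside 1.5-fold for 30. The other 3 were *Rfc3*, *Rfc2* and *Cdt1*. The 35 members that did not pass had log2 fold changes from -0.53 for *Gins4* to 0.32 for *Rfc5* and adjusted p values from 0.0158 to 0.899 in edgeR's test. In CPM, the groups did not overlap in 20 members that were higher and 15 that were lower at PD800, 72.9% of the members against 73.8% of all tested genes (37.4% higher and 36.4% lower). In TPM the split was 7 higher and 28 lower, beside 21.3% higher and 49% lower of all tested genes. With limma on log2(TPM + 1), 1 member rose and 5 fell, against 8 and 5 in counts, and 4 of the 13 members past the adjusted p in counts passed there too (*Cdt1*, *Mcm5*, *Mcm9* and *Rfc2*), while the other 9 had adjusted p values from 0.0107 for *Pold2* to 0.344 for *Orc3*. The 13 members whose sign differed between the counts and the TPM scale were all among those that did not pass. The length that RSEM estimated for a gene's transcripts, which enters TPM but not CPM, did not overlap between the groups in 14 members, 29.2% beside 24.1% of all tested genes. The 8 and 5 also depended on which libraries were used: fewer members passed without either PD800 library, and more without either PD100 library. The share of all genes was not taken in these fits. As each library was left out, the log2 fold change ranged from 1.24 to 1.33 for *Rfc3* and from 0.864 to 0.902 for *Rfc2*. It ranged from -0.965 to -0.831 for *Cdt1* and from 0.375 to 0.636 for *Orc3*.

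**Figure D1:**
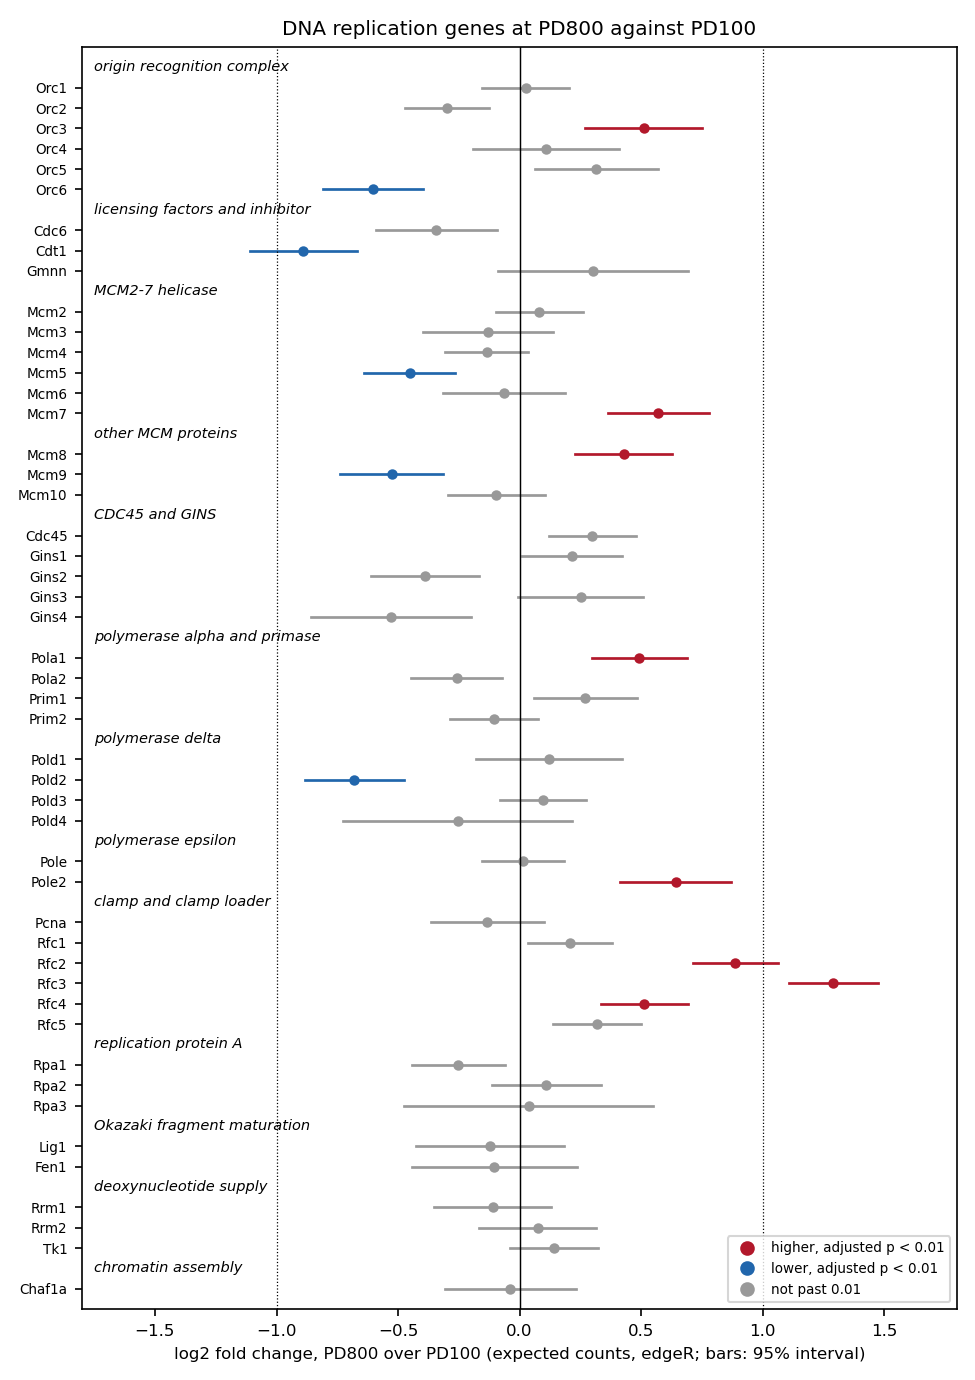
Log2 fold change at PD800 over PD100 of the 48 replication genes (x axis, expected counts, edgeR), grouped by role on the y axis, with 2 libraries per group. Points are estimates, bars are 95% intervals, red marks the 8 members higher and blue the 5 lower at an adjusted p under 0.01, and dotted lines mark a 2-fold change. The bar of *Rfc3* lies wholly beyond a dotted line, those of *Rfc2* and *Cdt1* cross one, and the other 45 stay between the lines.

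Among the origin recognition subunits, *Orc3* rose, *Orc6* fell and 4 did not pass. *Orc6*, on chromosome 8 (ENSMUSG00000031697.12), was at 85.7 and 76.8 CPM in the PD100 libraries and at 54.0 and 53.1 CPM in the PD800 libraries. Both PD800 values lay below both PD100 values, with a log2 fold change of -0.60 (SE 0.084, adjusted p = 0.00233 by edgeR). *Orc3*, on chromosome 4, was at 56.0 and 47.6 CPM at PD100 and at 75.1 and 72.6 CPM at PD800, a log2 fold change of 0.51 (SE 0.099, adjusted p = 0.00805 by edgeR). *Orc6* shares exon sequence with *Vps35* on the opposite strand, which had 10162 and 7758 expected counts at PD100 and 6812 and 5847 at PD800. The groups of *Orc3* did not overlap in CPM but did in TPM (30.4 and 24.4 against 33.3 and 29.4), where its estimated transcript length was also longer at PD800. Per length, *Orc6* was the most abundant of the 6 in every library, and the lowest was *Orc5* in 3 libraries and *Orc1* in PD800 replicate 1. The TPM of *Orc6* over that of *Orc1*, the subunit whose level varies with the cell cycle, was 3.28 and 2.76 at PD100 and 1.94 and 1.71 at PD800. *Orc2* had a log2 fold change of -0.30 (adjusted p = 0.0168) and *Orc5* of 0.32 (adjusted p = 0.0494), both from edgeR, while those of *Orc1* and *Orc4* were 0.03 and 0.11.

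The licensing factor *Cdt1* showed the largest fall of the 48. *Cdt1* (ENSMUSG00000006585.3, chromosome 8) was at 88.0 and 98.3 CPM at PD100 and at 48.4 and 52.1 CPM at PD800. It was 1.85-fold lower, with no overlap between the groups (log2 fold change -0.89, SE 0.090, 95% interval -1.11 to -0.67, adjusted p = 0.000695 by edgeR). On the log2(TPM + 1) scale the fall exceeded 2-fold (-1.09, adjusted p = 0.00430 by limma), and *Cdt1* was there the single member called lower. Its partner *Cdc6*, the ATPase that loads MCM2-7 together with ORC, was at 87.3 and 104 CPM at PD100 and 76.0 and 74.9 CPM at PD800 and did not pass (log2 fold change -0.34, adjusted p = 0.0356). *Gmnn*, which encodes the inhibitor of CDT1, was at 39.4 and 54.9 CPM at PD100 and 55.4 and 60.9 CPM at PD800, an estimate of 0.30 that did not pass (adjusted p = 0.173). That estimate was 0.54 without PD100 replicate 2, where it passed (adjusted p = 8.32e-05 by edgeR), and 0.086 without PD100 replicate 1, and its PD100 libraries stood further apart than its group means in TPM. The TPM of *Gmnn* over that of *Cdt1* was 1.08 and 1.18 at PD100 and 2.63 and 2.60 at PD800. The transcript of the inhibitor was thus at about the level of its target's at PD100 and above it in both PD800 libraries, while the TPM of *Gmnn* itself overlapped between the groups. *Gmnn* was the highest of these 3 genes per length in every library, and the lowest was *Cdt1* in PD800 replicate 1 and *Cdc6* in the other libraries.

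In the MCM2-7 helicase, the order of the subunits by level changed. In counts, *Mcm7* rose, *Mcm5* fell, and *Mcm2*, *Mcm3*, *Mcm4* and *Mcm6* had log2 fold changes from -0.14 to 0.08 and did not pass. *Mcm7*, on chromosome 5 (ENSMUSG00000029730.16), was at 303 and 328 CPM at PD100 and at 459 and 478 CPM at PD800, a log2 fold change of 0.57 (SE 0.084, adjusted p = 0.00292 by edgeR). *Mcm5*, on chromosome 8 (ENSMUSG00000005410.6), was at 426 and 411 CPM at PD100 and at 304 and 308 CPM at PD800, a log2 fold change of -0.45 (SE 0.076, adjusted p = 0.00483 by edgeR). Neither gene's groups overlapped. Per length, *Mcm5* was the highest subunit at PD100 (132 and 127 TPM) and *Mcm7* at PD800 (153 and 150 TPM), while *Mcm4* was the lowest in every library, at 37.4 and 34.3 TPM and at 28.2 and 27.1 TPM. The TPM of *Mcm7* over that of *Mcm5* was 0.918 and 0.971 at PD100 and 1.94 and 1.96 at PD800. The assembled helicase holds these subunits in equal numbers. On the TPM scale every subunit but *Mcm7* was lower at PD800 with no overlap between the groups, beside 49% of all tested genes, and the summed TPM of the 6 was 517 and 526 at PD100 and 453 and 444 at PD800, with no test of the sum. *Mcm7* shares exon sequence with *Cops6* and *Ap4m1* on the opposite strand, and whether the counting used strand is not given in the sources used here. *Cops6* had 1707 and 1126 expected counts at PD100 and 2221 and 1925 at PD800. *Ap4m1* had 862 and 670 at PD100 and 1669 and 1433 at PD800, so that both were higher at PD800, as *Mcm7* was.

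**Figure D2:**
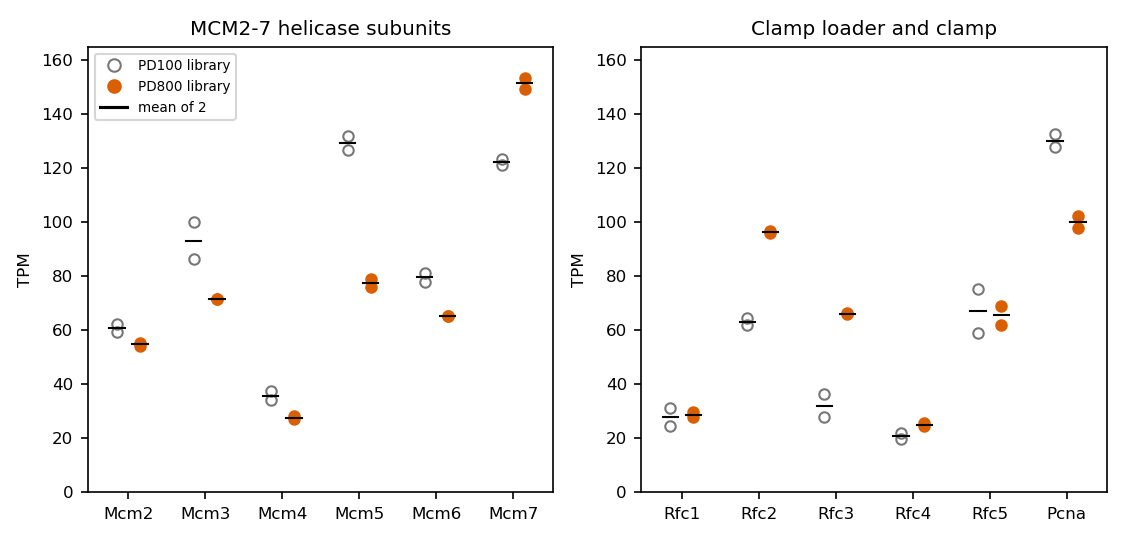
TPM (y axis) of the MCM2-7 subunits (left) and of the clamp loader subunits and the clamp *Pcna* (right) in each library. Open grey circles are the 2 PD100 libraries, filled orange circles the 2 PD800 libraries, and lines the mean of 2. *Mcm5* led the helicase at PD100 and *Mcm7* at PD800, and *Rfc2* and *Rfc3* were higher at PD800 while *Rfc1* overlapped.

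The other MCM proteins also moved apart. MCM8 and MCM9 form a helicase of their own that acts in homologous recombination, and MCM10 helps to activate MCM2-7 at origins. *Mcm8* was at 22.0 and 20.6 CPM at PD100 and at 28.2 and 29.2 CPM at PD800, a log2 fold change of 0.43 (SE 0.081, adjusted p = 0.00743 by edgeR). *Mcm9*, its partner, went the other way, from 18.2 and 17.5 CPM to 12.2 and 12.6 CPM, a log2 fold change of -0.53 (SE 0.086, adjusted p = 0.00420 by edgeR). Neither pair of groups overlapped. In TPM, *Mcm9* fell further, from 4.6 and 3.86 to 2.07 and 2.12, and the length that RSEM estimated for its transcripts was 3232 and 3338 bases at PD100 and 3940 and 3768 bases at PD800. *Mcm9* shares exon sequence with *Asf1a* on the opposite strand, which had 1469 and 1041 expected counts at PD100 and 670 and 581 at PD800. *Mcm10*, the most abundant of the 3 per length, where *Mcm9* was the lowest, had a log2 fold change of -0.10 and overlapped between the groups in CPM.

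None of *Cdc45* and the 4 GINS genes passed the test in edgeR (2 were higher and 2 lower at an unadjusted p under 0.05), and the estimates for the GINS subunits pointed in both directions. The log2 fold changes were -0.39 for *Gins2* (adjusted p = 0.0160) and -0.53 for *Gins4* (adjusted p = 0.0216) by edgeR, both genes lying on chromosome 8. Those of *Gins1* and *Gins3* were 0.22 and 0.25, with adjusted p values of 0.0830 and 0.0984 in the same test, and *Cdc45* was at 0.30 (adjusted p = 0.0186). These calls depended on the processing: of 14 settings, the one reported here included, *Gins4* passed in 6, *Gins2* in 5, *Cdc45* in 4, *Gins3* in 1 and *Gins1* in 0. The one setting in which *Gins3* passed left out PD100 replicate 1, and its estimate there was 0.38 (0.12 to 0.38 over the libraries left out). GINS is a complex of 4 different proteins, of which *Gins4* had the highest TPM in every library (41.6 and 47.0 at PD100, 25.1 and 27.2 at PD800) and *Gins3* the lowest (6.57 and 5.19, then 6.51 and 6.05).

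Among the 48 genes, each replicative polymerase had at most 1 subunit past the test. *Pola1*, the catalytic subunit of polymerase alpha, on the X chromosome (ENSMUSG00000006678.6), was at 97.8 and 107 CPM at PD100 and at 142 and 146 CPM at PD800, a log2 fold change of 0.49 (SE 0.080, adjusted p = 0.00408 by edgeR). Its accessory subunit *Pola2* had an estimate of -0.26 (adjusted p = 0.0353), and the primase genes *Prim1* and *Prim2* of 0.27 (adjusted p = 0.0467) and -0.10 (adjusted p = 0.298) in the same test. Per length, *Prim1* was the highest of these 4 in every library, and the lowest was *Pola1* at PD100 and *Prim2* at PD800.

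In polymerase delta, the accessory subunit *Pold2* fell while the catalytic subunit *Pold1* did not pass. *Pold2* (ENSMUSG00000020471.11, chromosome 11) was at 64.3 and 58.9 CPM at PD100 and at 37.4 and 39.5 CPM at PD800, with no overlap (log2 fold change -0.68, SE 0.084, adjusted p = 0.00146 by edgeR). *Pold1* was at 83.1 and 106 CPM at PD100 and at 101 and 104 CPM at PD800, so that its PD800 values lay between the PD100 values. In TPM, *Pold2* was the highest subunit at PD100 and *Pold1* at PD800, and *Pold2* over *Pold1* went from 1.28 and 1.14 to 0.632 and 0.717. *Pold4*, the smallest subunit, was the lowest in every library, at 4.07 and 2.77 TPM and at 2.47 and 2.38 TPM, and the 95% interval of its log2 fold change, -0.72 to 0.22, was among the widest of the members.

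In polymerase epsilon, the pattern was the reverse, with a higher accessory subunit. *Pole2* (ENSMUSG00000020974.6, chromosome 12) was at 20.5 and 18.2 CPM at PD100 and at 31.0 and 29.4 CPM at PD800, with no overlap (log2 fold change 0.64, SE 0.094, adjusted p = 0.00275 by edgeR). *Pole*, the catalytic subunit, stayed between 132 and 134 CPM in the 4 libraries, with a 95% interval of the log2 fold change from -0.16 to 0.18, and its TPM, above that of *Pole2* in every library, was 27.7 and 26.1 at PD100 and 21.6 and 20.1 at PD800. The lower TPM came with a longer estimated transcript, 3922 and 3713 bases against 4172 and 4220. *Pole2* shares exons on its own strand with *Gm49384*, which had 248 to 335 expected counts, so that reads may be divided between them.

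The clamp loader held the largest rises. Of the 5 RFC genes, which encode the ring that opens PCNA and places it on DNA, *Rfc2*, *Rfc3* and *Rfc4* rose, and *Rfc1* and *Rfc5* had estimates of 0.21 (adjusted p = 0.0563) and 0.32 (adjusted p = 0.0158) by edgeR. *Rfc3* (ENSMUSG00000033970.15, chr5:151642756-151651242 on the minus strand) was at 43.2 and 41.6 CPM in the PD100 libraries and at 102 and 106 CPM in the PD800 libraries. The rise was 2.45-fold (log2 fold change 1.29, SE 0.075, 95% interval 1.11 to 1.47, adjusted p = 0.000114 by edgeR), and the groups lay far apart beside the spread within them. In TPM it went from 36.4 and 28.0 to 66.1 and 66.4, with adjusted p = 0.0110 from limma on log2(TPM + 1), which misses the threshold of 0.01. *Rfc2* (ENSMUSG00000023104.9, chromosome 5) was at 76.5 and 79.4 CPM at PD100 and at 145 and 144 CPM at PD800, 1.85-fold higher (log2 fold change 0.89, SE 0.072, 95% interval 0.71 to 1.06, adjusted p = 0.000323 by edgeR). *Rfc4*, on chromosome 16, went from 27.9 and 28.1 CPM to 39.4 and 40.5 CPM (log2 fold change 0.51, SE 0.073, adjusted p = 0.00255 by edgeR). The groups of these 3 genes did not overlap in CPM or in TPM. *Rfc4* shares exon sequence with *Eif4a2* on the opposite strand, which had 18069 and 16521 expected counts at PD100 and 9646 and 8991 at PD800, opposite in direction to *Rfc4*.

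*Rfc1* encodes the large subunit that is particular to the replicative loader, whereas the small subunits also serve in other loaders. Relative to *Rfc1* in TPM, *Rfc3* went from 1.16 and 1.14 to 2.22 and 2.39, *Rfc2* from 1.97 and 2.62 to 3.26 and 3.45, and *Rfc4* from 0.703 and 0.808 to 0.861 and 0.885. *Pcna*, the clamp itself and the most abundant of the 6 per length (128 and 133 TPM, then 102 and 97.9 TPM), was at 210 and 245 CPM at PD100 and at 206 and 209 CPM at PD800, a log2 fold change of -0.13 that did not pass (adjusted p = 0.306 by edgeR). The lowest of the 6 was *Rfc4* in every library, at 22.0 and 19.9 TPM at PD100 and at 25.6 and 24.6 TPM at PD800.

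Genes for single-strand binding, Okazaki fragment maturation, nucleotide supply and chromatin assembly did not pass the test. The 3 subunits of replication protein A, which coats single-stranded DNA, had log2 fold changes of -0.25 (*Rpa1*, adjusted p = 0.0412), 0.11 (*Rpa2*) and 0.04 (*Rpa3*), and *Rpa1* had the highest TPM in every library. The lowest was *Rpa3* in replicate 1 of each group (29.5 TPM at PD100, 28.9 TPM at PD800) and *Rpa2* in replicate 2 (33.9 TPM at PD100, 31.2 TPM at PD800). *Rpa3* carried the largest error, with PD100 libraries at 19.1 and 29.5 CPM and PD800 libraries at 22.8 and 27.0 CPM. The flap endonuclease *Fen1* and the DNA ligase *Lig1* were at -0.10 and -0.12, with *Fen1* above *Lig1* per length in every library. The ribonucleotide reductase subunits *Rrm1* and *Rrm2* were at -0.11 and 0.07, thymidine kinase *Tk1* was at 0.14, and *Chaf1a*, the large subunit of chromatin assembly factor 1, was at -0.04. Of *Rrm1*, *Rrm2* and *Tk1*, *Rrm2* had the highest and *Tk1* the lowest TPM in every library. All these genes but *Rpa1* and *Tk1* overlapped between the groups in CPM, where 73.8% of all tested genes did not overlap, and all had 95% intervals within a 2-fold change. In TPM, 7 of these 9 genes, all but *Rpa3* and *Tk1*, were lower at PD800 with no overlap, beside 49% of all tested genes, as *Rrm1* at 45.5 and 53.5 TPM against 40.2 and 38.7 TPM.

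The study described copy number changes at chromosome ends after ALT had begun. It named the ends of chromosomes 2, 5 and 16 among those changed at PD800 only. DNA was not analysed here, and the position of the members was therefore set beside their change in RNA, as a description. Of the 13 members past the adjusted p, 6 lay on chromosomes 5 and 8, which held 13 of the 48 members. Chromosomes 5 and 8 were picked out afterwards, from the 15 that held a member. On chromosomes 2 and 16, whose ends the study also named, 1 of 5 and 1 of 3 members rose and 0 fell by edgeR. Over all tested genes, 13.1% rose and 15.4% fell past the adjusted p. Chromosome 5 held 7 members (*Orc5*, *Mcm7*, *Pole*, *Rfc1*, *Rfc2*, *Rfc3* and *Rfc5*), of which 3 rose and 0 fell by edgeR (6 and 0 at an unadjusted p under 0.05), and their median log2 fold change was 0.32 beside 0.13 over 1307 tested genes of the chromosome. Chromosome 8 held 6 members (*Orc6*, *Cdt1*, *Mcm5*, *Gins2*, *Gins3* and *Gins4*), of which 3 fell and 0 rose by edgeR (5 and 0 at an unadjusted p under 0.05), with a median of -0.49 beside -0.45 over 1008 tested genes. *Rfc3* ended 0.051 Mb before the last annotated base of chromosome 5, nearer to that end of its chromosome than any other member. In the last 5 Mb of chromosome 5, the median over 57 tested genes was 0.60, with 22 genes higher and 4 lower at an adjusted p under 0.01 by edgeR. In the last 5 Mb of chromosome 8, 0 of 34 tested genes rose and 27 fell at that threshold by edgeR, with a median of -1.38, but *Cdt1* lay 6.71 Mb and *Gins2* 8.69 Mb from the last annotated base, outside that stretch.

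The neighbours of most members went the same way as the member. For each member, the median log2 fold change of its 40 nearest tested genes was taken, the member itself left out. Across the 48 members the correlation of the member's value with that of its neighbours was 0.72 (Pearson) and 0.63 (Spearman), and over the 35 members on other chromosomes than 5 and 8 it was 0.54 and 0.47. The points share libraries, and members on the same chromosome can share neighbours. The signs were alike for 34 of the 48 and for 11 of the 13 that passed. *Mcm7*, at 0.57, stood beside neighbours at 0.60, and *Orc6*, at -0.60, beside neighbours at -0.55. *Mcm5* was at -0.45 against -0.58, and *Mcm9* at -0.53 against -0.92 for its neighbours, of which 7.5% were above 0. These 4 members thus changed by no more than, or about as much as, the genes around them.

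Other members stood apart from their surroundings. *Rfc2*, at 0.89, was above neighbours at 0.33, and *Pold2*, at -0.68, was below neighbours at -0.36. *Rfc4*, at 0.51, rose among neighbours with a median of -0.15. *Pole2* and *Pola1* had neighbours at 0.05 and 0.02, and the neighbours of *Mcm8* were at 0.00. *Gins3*, at 0.25, lay among chromosome 8 neighbours at -0.44. The gap depended on how many neighbours were taken. Its sign differed between 40 and 20 neighbours for 4 members (*Orc6*, *Gins2*, *Rrm1* and *Rpa3*), and the difference of *Mcm7* from its neighbours was -0.029 with 40 and -0.13 with 20. *Rfc3*, at 1.29, lay 0.67 above its 40 nearest genes, whose median was 0.62, but 0.10 above its 20 nearest, whose median was 1.19. *Cdt1*, at -0.89, was below neighbours at -0.48 among 40 genes and at -0.67 among 20, and *Orc3*, at 0.51, was above neighbours at 0.13 and at 0.37. The part that position had in any of these changes was not tested.

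**Figure D3:**
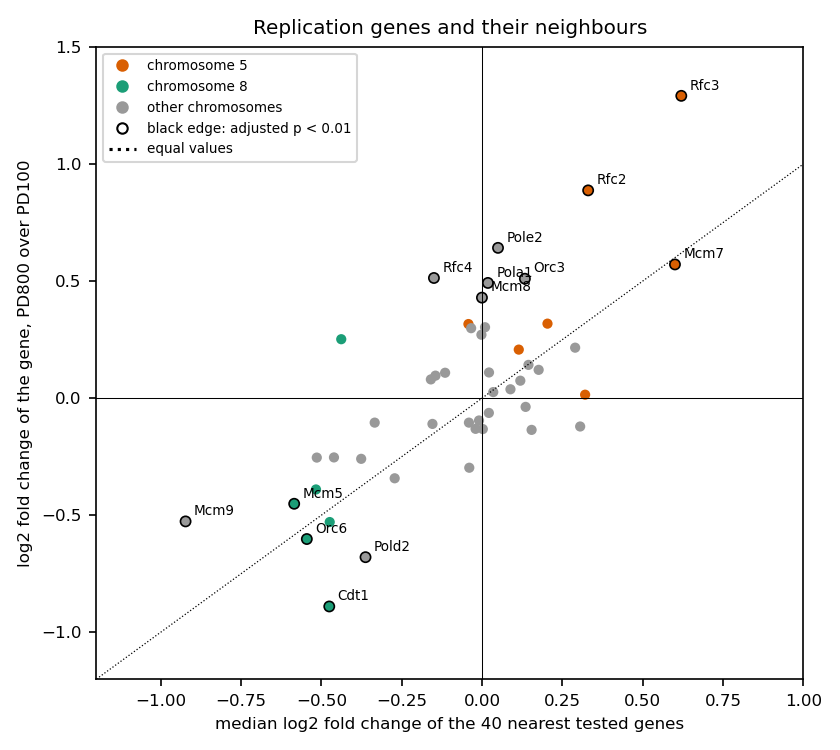
Log2 fold change (PD800 over PD100) of each replication gene (y axis) against the median of its 40 nearest tested genes (x axis), 48 points, with chromosome 5 in orange, chromosome 8 in green and others in grey. Black edges mark the 13 members past an adjusted p of 0.01 and the dotted line marks equal values. *Mcm7*, *Orc6* and *Mcm5* sit near the line, and *Rfc4* and *Pole2* far above it. *Rfc3* lies 0.67 above the line here and 0.10 above it with the 20 nearest genes.

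The remaining genes of the replication fork and of origin firing were tested in the same fit, in which 13.1% of all genes rose and 15.4% fell. Of 33 such genes, 6 rose and 5 fell at an adjusted p under 0.01 by edgeR, 0 were called at 2-fold in either direction, and the median log2 fold change was -0.06. Without either PD800 library these were 0 and 2, without PD100 replicate 1 they were 7 and 11, without PD100 replicate 2 they were 7 and 7, and on log2(TPM + 1) with limma they were 0 and 4. Those that rose included *Pole4*, a histone-fold subunit of polymerase epsilon (0.75), *Mcmbp*, which binds MCM proteins (0.69), and *Lrwd1*, an ORC-associated protein (0.57), and those that fell included *Asf1a*, a histone chaperone (-0.88), *Rnaseh2a*, the catalytic subunit of RNase H2 (-0.87), and *Dna2*, a nuclease and helicase (-0.76). These 6 were named after their values were seen, as were the next 4 here and *Tfdp1* and *Pou5f1* further on. Of 10 other genes of deoxynucleotide supply, thymidylate synthase *Tyms* rose (0.46) and *Samhd1* (-0.41) and *Nme1* (-0.66) fell. Of 10 translesion polymerase genes, *Rev3l*, the catalytic subunit of polymerase zeta, fell (-0.80) and 0 rose by edgeR (4 at an unadjusted p under 0.05) or by DESeq2. Of 14 replication checkpoint genes, 2 rose and 0 fell by edgeR (1 at an unadjusted p under 0.05) or by DESeq2. With limma on log2(TPM + 1), 0 checkpoint and 0 translesion genes passed in either direction. Of the 10 other deoxynucleotide supply genes, 0 rose and 2 fell there. Without PD100 replicate 1 the checkpoint counts were 6 and 0, without PD100 replicate 2 they were 2 and 1, and without either PD800 library 0 and 0. Of the translesion genes, 2 rose without either PD100 library.

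Among regulators upstream of the members, called genes were found in both directions. In the E2F and retinoblastoma family of 13 genes, the dimerisation partner *Tfdp2* was called higher (42.4 to 48.9 CPM at PD100, 96.1 to 98.0 CPM at PD800, log2 fold change 1.09) and its relative *Tfdp1* fell (-0.72), while *E2f1* to *E2f8* and the retinoblastoma genes did not pass. With limma on either TPM scale, 0 of the 13 rose and 1 fell. The TPM of *Tfdp2* was 10.2 and 8.53 at PD100 and 14.2 and 13.0 at PD800. Of 19 genes of the G1/S cyclins, kinases and inhibitors, 3 rose and 10 fell, with a median of -0.39, and without either PD800 library these were 1 and 3 (5 and 10 without PD100 replicate 1). The called ones were the inhibitor *Cdkn1b* (p27), higher at 1.38, and the cyclin *Ccnd2* (-2.48) and the inhibitors *Cdkn1c* (p57, -2.04) and *Cdkn1a* (p21, -1.45), lower. Activators and inhibitors of the G1/S step thus stood among the genes that fell. With limma, 1 of these 19 rose and 7 fell on log2(TPM + 1), and 1 rose and 5 fell on log2(TPM + 0.1). Of 20 genes of G2 phase and mitosis, 11 rose and 0 fell by edgeR (1 at an unadjusted p under 0.05) or by DESeq2, with a median of 0.48, and the kinase *Aurka* (1.28) and the proliferation marker *Mki67* (1.09) were called higher. Without either PD800 library 4 of these 20 rose, and with limma on log2(TPM + 1) 2 rose and 0 fell. The difference between these lists and the replication genes was not tested.

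**Figure D4:**
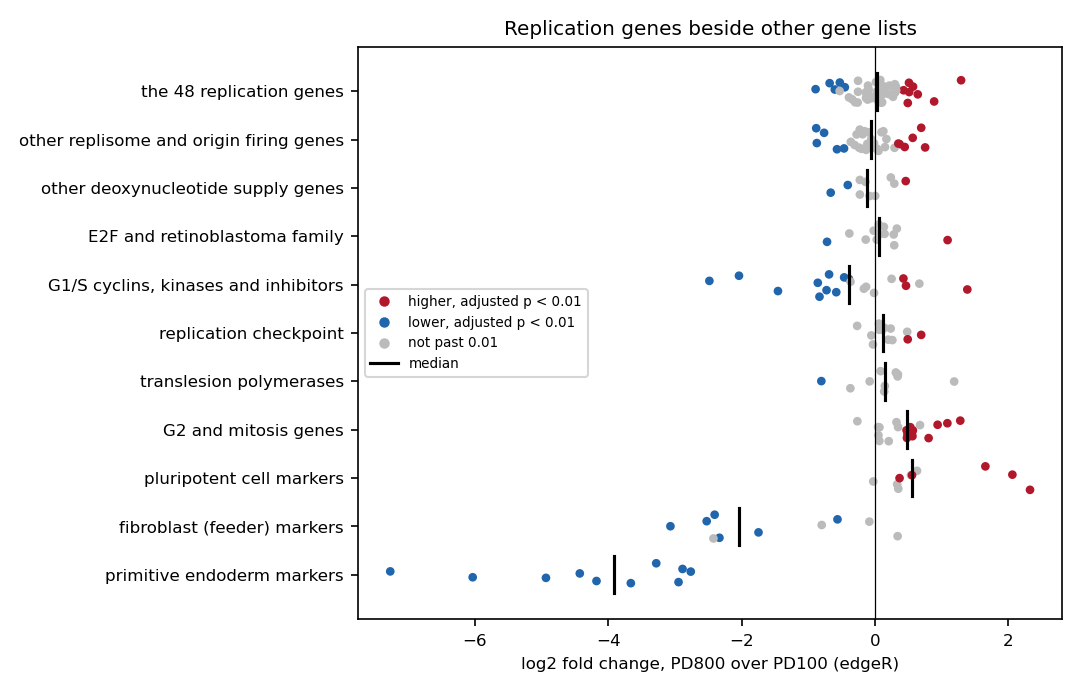
Log2 fold change (PD800 over PD100, x axis, edgeR) of each tested gene of the 48 replication genes and of 10 other lists (y axis). Red and blue mark genes higher and lower at an adjusted p under 0.01, grey those that did not pass, and black bars the median of each list. The 48 replication genes spread from -0.89 for *Cdt1* to 1.29 for *Rfc3* around a median of 0.03, and the primitive endoderm markers have a median of -3.92.

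Markers of cell state moved between the same groups. The pluripotent identity of the label was borne out by *Pou5f1*, at 467 and 503 CPM at PD100 and at 601 and 635 CPM at PD800. Of 10 pluripotency markers, 5 rose and 0 fell (8 and 0 by DESeq2, also 8 and 0 at an unadjusted p under 0.05). The 5 became 9 without PD100 replicate 2, 7 without PD100 replicate 1 and 3 without either PD800 library. Their summed level was 1575 and 1879 TPM at PD100 and 2239 and 2285 TPM at PD800, and *Nanog* (2.32), *Esrrb* (2.06) and *Fgf4* (1.66) were called higher. All 10 markers of primitive endoderm, a lineage that arises beside pluripotent cells, were called lower: their summed level was 242 and 262 TPM at PD100 and 14.7 and 15 TPM at PD800. *Sox17* (-6.03) and *Pdgfra* (-4.93) were among the lowest, and *Foxa2*, also called lower, had 1 expected count in each PD800 library. Of 12 fibroblast markers, which would mark feeder cells, 10 were tested, 0 rose and 6 fell (0 and 8 at an unadjusted p under 0.05, 0 and 6 by DESeq2), of which 5 were called (*Col1a1* at -3.07, *Col3a1* at -2.52 and *Twist2* at -2.40 were the lowest), their summed level went from 15.2 and 15.4 TPM to 4.97 and 4.98 TPM, and *Lum* and *Fap* were too low to be tested. In bulk RNA, fewer cells of a type and less RNA per cell cannot be told apart. The part of these shifts in cell state in the changes of the replication genes was not tested.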

How the data were processed

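RNA-seq libraries of DKO741 cells, 2 from PD100 and 2 from PD800, were grouped by the population doubling in the sample titles. The authors aligned 101 bp paired-end reads to mm10 with STAR 2.5.3a and deposited the expected counts, TPM and FPKM that RSEM 1.3.0 gave for each gene. FPKM was not used. The deposited TPM values are scaled for length and to one total per library. The submitters' notes also name DESeq2 1.18.1. The annotation release and the use of strand are not given in the sources used here. Of the 53379 genes, 53274 were found by Ensembl identifier in GENCODE M21 (GRCm38, the assembly of mm10), which gave positions and exons.

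Expected counts were rounded and fitted with edgeR 4.0.16 under R 4.3.3, after TMM normalisation and filterByExpr (minimum count 10), by the quasi-likelihood test adjusted after Benjamini and Hochberg over the 19148 genes kept. Called genes had a fold change over 2 and an adjusted p under 0.01. For 1 gene, 2 libraries against 2 allow no two-sided exact permutation p under 0.333. The p-values thus rest on a spread of each gene that was drawn towards that of all genes. The common dispersion, 0.0136, set the spread of every gene in the simulation. On simulated data of 19148 genes for this comparison, an adjusted p under 0.01 recovered 22% of genes changed 1.5-fold, 86% changed 2-fold and 100% changed 3-fold or 4-fold, with 1 false call. Each fold had 50 changed genes, far fewer than passed in the data. Promoter windows came from RefSeq (GRCm38.p6): all 8-base motifs were searched on both strands. Of 48 member windows, the bases past the start were found in a transcript in sense for 41 and in antisense for 0.

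The members and lists were chosen with earlier results of these data known. Members past the adjusted p were given with every library's value, the highest and lowest subunit of each complex by TPM was named, and of each list the called genes, at most 3 in each direction. Expected counts were whole, within 0.005, in all libraries for 31 members. Exons overlap another annotated gene for 20 members, on the same strand for 5 and on the opposite strand for 16. Alternatives tried were the DESeq2 1.42.0 Wald test, the size factors of DESeq2 or upper-quartile normalisation in edgeR, omission of the filter, a minimum of 10 counts in all libraries, nuclear protein-coding genes alone, the replicate number as a block, limma 3.58.1 with pseudocounts of 1 and 0.1 on log2 TPM, an adjusted p under 0.05, the 20 nearest genes in place of 40, and leaving out each library.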

Additional observations from a re-analysis of the deposited data

How the results depend on the processing

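*Rfc3* stayed the single member called higher, and 0 were called lower, under DESeq2, both other normalisations, both other filters, the restriction to nuclear protein-coding genes, the replicate block, an adjusted p under 0.05 and each library left out. On both TPM scales (limma, with pseudocounts of 1 and 0.1), 0 members were called higher and 1 lower. At an adjusted p under 0.01 and any fold, the 8 higher members became 1 with the pseudocount of 1 and 0 with that of 0.1, and the 5 lower became 8 with DESeq2, 9 without a filter, 9 with the replicate block, 11 at an adjusted p under 0.05 and 1 on log2(TPM + 0.1). Leaving out each library, the higher members ranged from 2 to 13 and the lower from 1 to 12. The cause was not tested. Of the 35 members that did not pass, 12 passed without PD100 replicate 1 and 7 without PD100 replicate 2. Without either PD800 library, the smaller lists also lost calls: the replication checkpoint and other deoxynucleotide supply genes had 0 in each direction, *Tfdp1* no longer passed, and 3 pluripotency and 4 fibroblast markers passed, while all 10 primitive endoderm markers did. With no filter or with the replicate block, 9 pluripotency markers passed. The members' median log2 fold change was -0.23 on both TPM scales. Over all tested genes the median was -0.12 on log2(TPM + 1) and -0.21 on log2(TPM + 0.1). All genes called higher numbered 274 on log2(TPM + 1) and 454 on log2(TPM + 0.1), and all genes called lower 872 on log2(TPM + 1).

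The following members, none past the adjusted p, reversed on log2(TPM + 1) and log2(TPM + 0.1): *Orc1* (-0.081 and -0.085), *Orc4* (-0.25 and -0.26), *Mcm2* (-0.15 in both), *Gins1* (-0.021 and -0.022), *Prim1* (-0.0012 and -0.0011), *Pold1* (-0.076 and -0.078), *Pold3* (-0.099 and -0.10), *Pole* (-0.35 and -0.37), *Rfc5* (-0.026 in both), *Rpa2* (-0.12 and -0.13), *Rpa3* (-0.16 and -0.17), *Rrm2* (-0.20 in both) and *Tk1* (-0.080 and -0.082). Leaving out each library, the log2 fold change ranged across 0 for *Orc1* (-0.013 to 0.068), *Orc4* (-0.051 to 0.27), *Mcm6* (-0.17 to 0.037), *Pold1* (-0.040 to 0.28), *Pole* (-0.018 to 0.028), *Rpa3* (-0.24 to 0.36), *Lig1* (-0.29 to 0.044), *Fen1* (-0.28 to 0.072), *Rrm2* (-0.026 to 0.16) and *Chaf1a* (-0.17 to 0.082), with a lone library assumed to vary like the other group. With 20 nearest genes in place of 40, the gap to the neighbours' median went from 0.67 to 0.10 for *Rfc3*, from 0.38 to 0.14 for *Orc3* and from -0.41 to -0.22 for *Cdt1*, and *Orc6* lay 0.039 above that median instead of below it.

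The deviations of same-numbered libraries from their group means correlated across genes (0.388), but with 2 pairs the numbers alone do not establish pairing. With the replicate block, 11 members were higher and 9 lower, with 1461 of all genes called higher and 1956 of all genes called lower. Changes of 1.5-fold were mostly missed in the simulated libraries, but these held 50 changed genes at each fold, where 28.5% of the real genes passed. They also gave all genes and both groups the same dispersion. In the data some smaller changes passed, as *Mcm8* at 1.35-fold, so that the simulated recovery cannot be carried over to the members. Members whose 95% interval reaches past 1.5-fold may have changed by that much.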
